A study of Mus musculus with 6 samples.

Results

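The stefin A genes of the mouse lie side by side on chromosome 16, and 7 of them, Stfa1, Stfa2, Stfa2l1, Stfa3, Gm5483, Gm5416 and BC100530, were described here out of 14968 protein-coding genes in the expression table. They were taken by symbol, and the set had been chosen by its FPKM values in diabetic against control cornea. Those values are therefore a description. Counts of the 7 genes past each threshold are given beside the share of all genes, and nothing is read from them. All 7 were in the table and all 7 passed the filter on low values, each of them in both groups.

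Gene expression was measured by RNA-seq of polyadenylated RNA from regenerating corneal epithelium of male C57BL/6 mice in 6 libraries. The 3 diabetic libraries came from mice with type 1 diabetes (T1DM), induced with streptozotocin (STZ), a toxin of the insulin-producing beta cells, and kept for 16 weeks afterwards. The 3 control libraries came from age-matched mice without diabetes. In both groups the epithelium had been scraped off a day earlier, the limbus was collected together with some of the regrowing centre, and several mice were pooled in each library. An SD over replicates is thus one over pools of mice.

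The values are FPKM, which count sequenced fragments relative to transcript length and to all mapped fragments of the library. FPKM summed to between 308757 and 331926 per library, and 14000 to 14116 genes were above 0. The depth of the libraries is unknown, as FPKM do not hold it. The corneal keratin Krt12 averaged 4964 ± 1068 FPKM in diabetic and 3412 ± 341 FPKM in control libraries, the basal keratin Krt5 3199 ± 67.3 and 3308 ± 79.1 FPKM, and the eye transcription factor Pax6 12.4 ± 2.22 and 12.6 ± 2.27 FPKM (SD, n = 3 each). The adjusted p-values of these 3 markers (limma, Benjamini-Hochberg over 12149 genes tested) were 0.306, 0.745 and 0.960. Ptprc, which encodes the leukocyte antigen CD45, was low, with 0.529, 0.280 and 0.305 FPKM in the diabetic libraries and 0.227, 0.253 and 0.356 FPKM in the control libraries.

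Stefins are small cystatins without a signal peptide that work mainly inside the cell. They sit in the active-site cleft of papain-like cysteine proteases, such as cathepsins B, H, L and S, and block it reversibly. Where humans have a lone stefin A gene, CSTA, known from the cornified envelope of stratified epithelia, the mouse carries a cluster of near-copies. In the mouse several of these copies are known from neutrophils and their precursors, others from skin and other surface epithelia.

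The stretch of DNA directly before each start site that RefSeq annotates is shown first, because the 7 genes are copies of each other and differ widely in level. RefSeq promoters (GRCm38.p6) were found for all 7 genes. RefSeq names Gm5483 as Cstdc4, Gm5416 as Csta3 and BC100530 as Cstdc5. The 100 bases before the annotated start were read from chr16:36156711-36156810 (plus strand) for Stfa2l1, chr16:36184112-36184211 (plus strand) for Gm5483, chr16:36210303-36210402 (plus strand) for Gm5416, chr16:36277048-36277147 (plus strand) for Stfa1, chr16:36367571-36367670 (minus strand) for BC100530, chr16:36408364-36408463 (minus strand) for Stfa2 and chr16:36455393-36455492 (minus strand) for Stfa3. Each is written 5′ to 3′ in the direction of transcription, with the letters TTTAAA in capitals.
Stfa2l1: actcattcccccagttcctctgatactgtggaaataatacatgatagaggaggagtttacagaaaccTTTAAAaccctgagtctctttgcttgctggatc
Gm5483: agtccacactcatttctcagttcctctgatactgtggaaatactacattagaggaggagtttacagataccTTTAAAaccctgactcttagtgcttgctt
Gm5416: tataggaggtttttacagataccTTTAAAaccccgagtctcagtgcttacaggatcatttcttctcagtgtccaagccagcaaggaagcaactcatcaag
Stfa1: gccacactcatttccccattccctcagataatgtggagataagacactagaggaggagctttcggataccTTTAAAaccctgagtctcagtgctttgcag
BC100530: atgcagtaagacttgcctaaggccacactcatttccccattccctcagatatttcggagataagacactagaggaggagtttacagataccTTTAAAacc
Stfa2: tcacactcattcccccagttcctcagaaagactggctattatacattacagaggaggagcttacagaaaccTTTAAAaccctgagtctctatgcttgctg
Stfa3: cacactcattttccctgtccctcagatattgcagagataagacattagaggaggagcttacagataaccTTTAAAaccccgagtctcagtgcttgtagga

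TTTAAA was searched for after these stretches had been seen. Among 32851 RefSeq promoters of 300 bases, 13.2% held it on either strand, and all 7 stefin A promoters did. Its first base lay 29 bases before the start in Gm5483 and Stfa2, 30 in Stfa1, 31 in Stfa3 and 33 in Stfa2l1. In Gm5416 it lay 77 bases and in BC100530 9 bases before the start that RefSeq annotates. For BC100530, the stretch printed above lies inside the gene span given with its expression (chr16:36359382-36367748, minus strand). The GENCODE M21 transcript of Gm5416, of 294 bases, is coding throughout, so no leader is annotated before its start codon. Offsets and motif windows of these genes are therefore not measured from start sites comparable to those of the others. The longest run common to all 7 stretches was accTTTAAAacc, of 12 bases, which was present in 11 of the 32851 promoters (0.0335%). The 4 promoters outside the 7 genes belonged to Cstdc3, Gm7260, Gm39539 and Cdc42ep4.

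Of the other motifs searched on both strands, the TATA box letters TATAAA were in 13.6% of all promoters and in 0 of the 7. GAGGAA, a core letter string of ETS factors such as PU.1, was in 28.3% of all promoters and in 6 of the 7, without Gm5416. The C/EBP motif TTGCNNAA was in 10.8% of all promoters and in 3 of the 7, namely Stfa1, Gm5416 and BC100530. The AP-1 motif TGANTCA was in 7.81% of all promoters and in 1 of the 7, Stfa3, where it lay 30 bases after the start. No match of these motifs overlapped TTTAAA in the 7 promoters. Over the 250 bases before the start, Stfa1 and BC100530 were identical at 96.1% of aligned bases and Stfa2 and Stfa2l1 at 92.3%, while Stfa3 and Gm5483 were the least alike pair at 71.2%.

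Some of the coding sequences were near-identical too (GENCODE M21, GRCm38). Each of the 7 genes had 3 coding exons. The coding sequence was 387 bases in Stfa1, 312 in Stfa2, Stfa2l1 and Stfa3, and 294 in Gm5483, Gm5416 and BC100530. Stfa1 and BC100530 shared 98.0% of 294 aligned bases, Stfa2 and Stfa2l1 96.5% of 312, and Gm5483 shared 96.9% of 294 with its neighbour 2010005H15Rik, a stefin-type gene outside the 7. Stfa3 shared at most 84.7% with any other of these genes, and Gm5416 at most 89.8%. The least alike members were Stfa1 and Stfa2l1, at 77.9%.

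**Figure D1:**
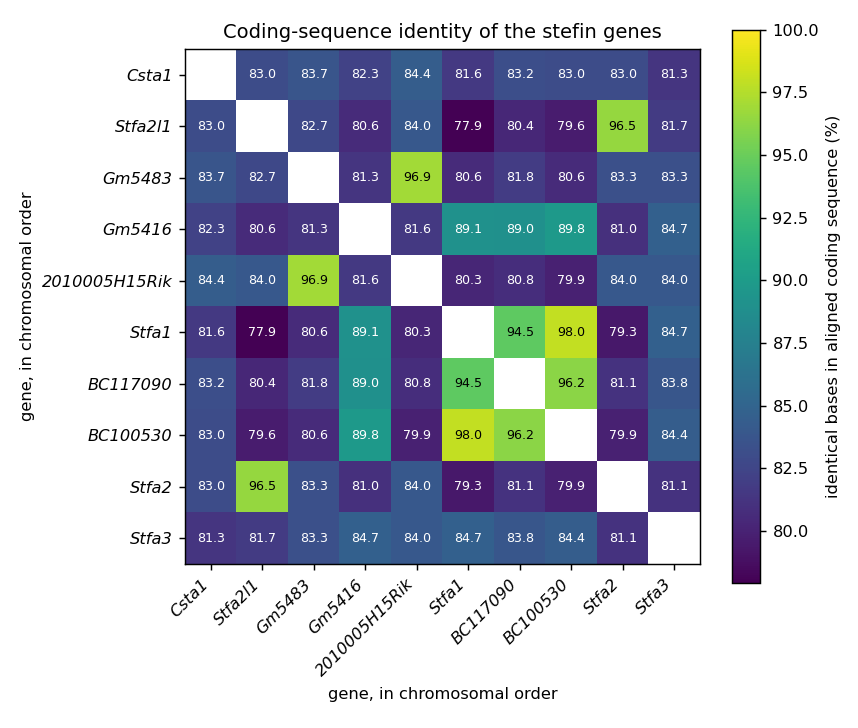
Identity of coding sequences between the 10 stefin-type genes of the cluster, as the percentage of identical bases among aligned bases, with both axes in chromosomal order. The bright cells are Stfa1 with BC100530 (98.0%), Gm5483 with 2010005H15Rik (96.9%), Stfa2 with Stfa2l1 (96.5%), BC117090 with BC100530 (96.2%) and Stfa1 with BC117090 (94.5%). The lowest is Stfa1 with Stfa2l1 (77.9%).

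This likeness bears on how far a read can be given to 1 gene. Of all coding stretches of 50 bases, 72.2% of those of BC100530 also occurred in a transcript of another gene (Stfa1, BC117090 or the antisense RNA Gm15845). The share was 39.2% for Gm5483 (shared with 2010005H15Rik), 28.5% for Stfa2l1 and 24.3% for Stfa2 (shared with each other and with pseudogenes), and 25.7% for Stfa1. Stfa3 and Gm5416 had 0 shared stretches. Only exact matches of coding bases were searched, so reads that fit another gene with mismatches or outside the coding part are not covered. How reads matching 2 genes were divided is not given in the sources used here. The split of signal within these pairs is uncertain for that reason.

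BC100530 (ENSMUSG00000071561.2, chr16:36359382-36367748, minus strand) was by far the most abundant stefin A transcript. It had 3120, 3497 and 3367 FPKM in diabetic replicates 1, 2 and 3, and 3105, 2734 and 3156 FPKM in control replicates 1, 2 and 3. The groups overlapped. It ranked 7th, 4th and 3rd among all genes of the diabetic libraries and 8th, 11th and 5th in the control libraries. Its mean was 3328 ± 192 FPKM in diabetic and 2998 ± 230 FPKM in control cornea (SD, n = 3 each), and its log2 fold change on the log2(FPKM + 1) scale used throughout was 0.15 (SE 0.07).

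Stfa3 and Stfa1 formed a middle tier. Stfa3 (ENSMUSG00000054905.2, chr16:36450537-36455392, minus strand) had 244, 257 and 236 FPKM in the diabetic libraries and 164, 147 and 195 FPKM in the control libraries. All 3 diabetic values lay above all 3 control values, and the log2 fold change was 0.55 (SE 0.11). Stfa1 (ENSMUSG00000071562.5, chr16:36277148-36285371, plus strand) had 170, 183 and 169 FPKM in the diabetic libraries and 132, 103 and 138 FPKM in the control libraries. Here too the groups did not overlap, with a log2 fold change of 0.50 (SE 0.12). The diabetic pools were close to each other for both genes, with an SD of 10.6 FPKM around 246 for Stfa3 and of 7.93 FPKM around 174 for Stfa1. The ratio of Stfa3 to Stfa1 was almost constant, at 1.43, 1.40 and 1.40 in the diabetic and 1.25, 1.43 and 1.41 in the control libraries.

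Stfa2 (ENSMUSG00000022902.7, chr16:36403946-36408363, minus strand) was the most abundant of the 4 genes that were low in control cornea. It had 74.8, 92.6 and 193 FPKM in diabetic replicates 1, 2 and 3 and 16.7, 13.2 and 26.1 FPKM in the control libraries. Every diabetic pool was above every control pool, and replicate 3 was the highest. The means were 120 ± 64.0 FPKM in diabetic and 18.6 ± 6.67 FPKM in control cornea, a ratio of 6.45, with a log2 fold change of 2.56 (SE 0.37).

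Gm5483, Stfa2l1 and Gm5416 were highest in diabetic replicate 1. Gm5483 (ENSMUSG00000079597.1, chr16:36184212-36188111, plus strand) had 76.6, 8.55 and 8.19 FPKM in the diabetic libraries, whereas control replicates 1 and 3 had 0.402 and 1.98 FPKM and control replicate 2 was listed at 0. Diabetic replicate 1 was 9.15 times the mean of the other diabetic pools, yet these also lay above all control libraries. The log2 fold change of 3.56 (SE 0.81) ranked 1st of the 12149 genes tested by size, from means of 31.1 ± 39.4 FPKM in diabetic and 0.794 ± 1.05 FPKM in control cornea.

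Stfa2l1 (ENSMUSG00000059657.4, chr16:36156811-36161948, plus strand) had 41.0, 5.96 and 9.95 FPKM in the diabetic libraries and 1.47, 1.16 and 1.25 FPKM in the control libraries. The control pools were tight (1.29 ± 0.159 FPKM), and the diabetic pools were 31.8, 4.62 and 7.71 times the control mean. The log2 fold change was 2.69 (SE 0.57), the 4th by size. Gm5416 (ENSMUSG00000094733.1, chr16:36210403-36217788, plus strand) had 31.6, 10.9 and 19.2 FPKM in the diabetic libraries and 4.70, 4.68 and 5.65 FPKM in the control libraries. Its control pools were again close together, and its log2 fold change was 1.73 (SE 0.32), the 16th by size.

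**Figure D2:**
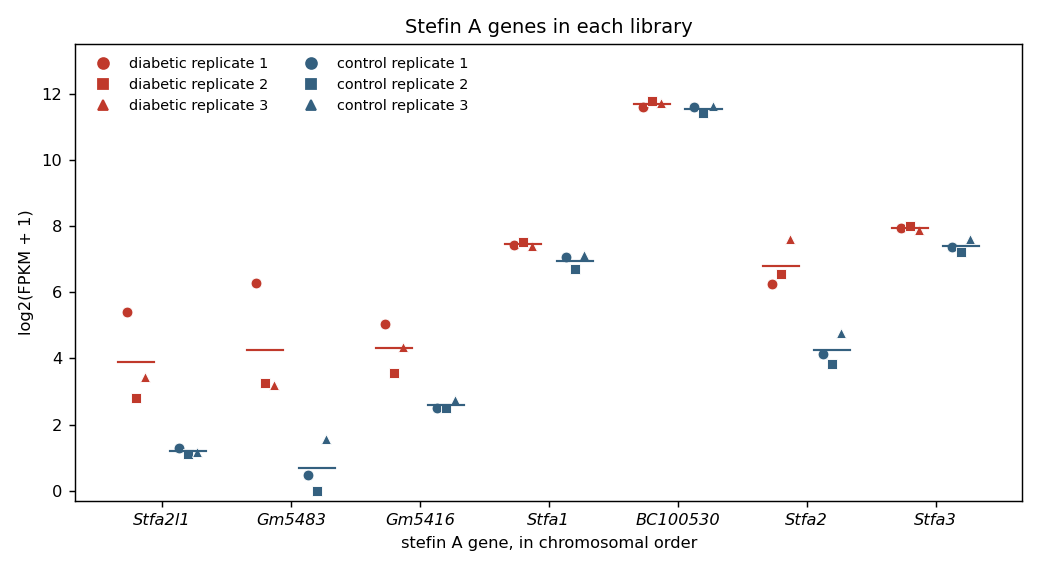
Expression of the 7 stefin A genes in chromosomal order, as log2(FPKM + 1) on the y axis, with a symbol for each library (diabetic red and left, control blue and right) and a line at the group mean. BC100530 sits near the top in all 6 libraries with the groups overlapping, whereas for the other 6 genes all diabetic symbols lie above all control symbols, and diabetic replicate 1 stands apart for Gm5483 and Stfa2l1.

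The groups did not overlap, with diabetic higher, for 6 of the 7 genes (6.68% of genes tested). An adjusted limma p under 0.05 was reached by 0 of the 7 (0.0412% of genes tested in the higher direction), against 6 of 7 at an unadjusted p under 0.05 (4.61% in that direction). The thresholds that the study used (1.5-fold or more, with p under 0.05 before adjustment) were passed by 4 of the 7 (1.23% in that direction), which were Gm5483, Stfa2l1, Stfa2 and Gm5416. The study applied these thresholds to p-values from ballgown, whereas here they were applied to limma p-values, so its own calls can differ. Without diabetic replicate 1, the adjusted threshold was passed by 2 of the 7, Stfa2 and Stfa2l1 (0.248% of genes tested in that fit in the higher direction), and the log2 fold changes of Gm5483 and Stfa2l1 were 2.54 and 1.93. Without diabetic replicate 2 it was passed by 1 of the 7, Gm5416 (0.0247% in the higher direction). The median log2 fold change of the 7 genes was 1.73, and that of all genes tested was -0.04.

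Because BC100530 made up most of the stefin A signal, the total moved far less than the low genes. The summed FPKM of the 7 genes was 3758, 4055 and 4002 in the diabetic and 3424, 3002 and 3524 in the control libraries, a ratio of means of 1.19. BC100530 held 83.0%, 86.2% and 84.1% of the sum in the diabetic and 90.7%, 91.1% and 89.6% in the control libraries. Without BC100530 the sums were 638, 558 and 635 FPKM in diabetic and 319, 268 and 368 FPKM in control cornea, with a ratio of means of 1.92. The 4 low genes together had 224, 118 and 231 FPKM in diabetic and 23.2, 19.0 and 35.0 FPKM in control cornea, with a ratio of means of 7.42. Their part of the stefin A sum was 5.96%, 2.91% and 5.77% in the diabetic libraries and 0.679%, 0.633% and 0.992% in the control libraries. In bulk tissue, a change in the number of cells that hold a transcript and a change in its amount per cell cannot be told apart.

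Ratios within the near-identical pairs were formed for each library. The ratio of Stfa2 to Stfa2l1 was 1.82, 15.5 and 19.5 in diabetic replicates 1, 2 and 3, and 11.4, 11.4 and 20.8 in control replicates 1, 2 and 3. Diabetic replicate 1 was below all other libraries in this ratio. Stfa2 was lower in that pool than in the other diabetic pools (0.523 times their mean) while Stfa2l1 was 5.16 times their mean. The ratio of BC100530 to Stfa1 was 18.3, 19.1 and 20.0 in the diabetic and 23.5, 26.6 and 22.9 in the control libraries, without overlap. The ratio of Gm5483 to 2010005H15Rik was 5.75, 2.98 and 2.04 in the diabetic libraries and 0.299 and 1.04 in control replicates 1 and 3, with Gm5483 listed at 0 in control replicate 2. Since these pairs share coding stretches, the part that divided reads play in the ratios was not tested.

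The stefin-type genes that were highest in diabetic replicate 1 lay together on the chromosome. The 7 genes span 299 kb, 4 on the plus strand and 3 on the minus strand, and between Csta1 and Stfa3 the table held 10 stefin-type genes over 335 kb. The 4 of these 10 that were highest in diabetic replicate 1 were Stfa2l1, Gm5483, Gm5416 and 2010005H15Rik, which are neighbours over 101 kb and all on the plus strand. Of all genes tested, 21.4% had their highest value in that library. Csta1, Stfa1, BC100530 and Stfa3 were highest in diabetic replicate 2, and BC117090 and Stfa2 in diabetic replicate 3. The first 4 differ in sequence from each other (80.6% to 84.0% coding identity, other than Gm5483 with 2010005H15Rik). Gm5416 has no exact coding stretch of 50 bases in common with any other gene. The part that reads shared between genes play in this was not tested.

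**Figure D3:**
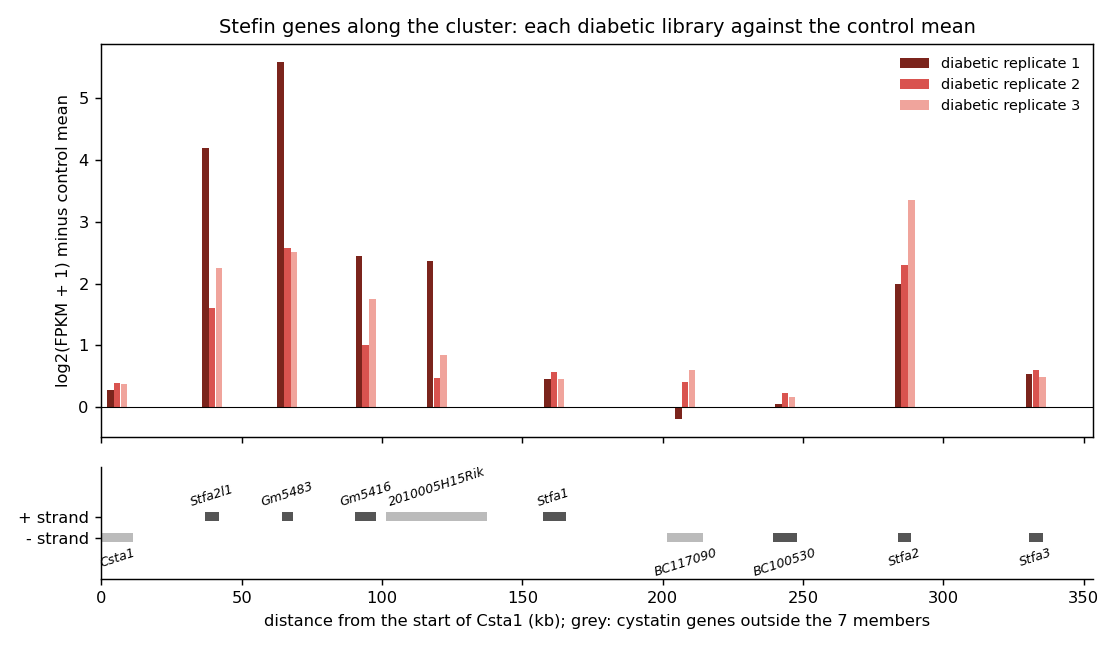
Upper panel, for each of the 10 stefin-type genes, log2(FPKM + 1) of each diabetic library minus the control mean, placed by distance in kb from the start of Csta1. Lower panel, gene spans by strand, with the 7 described genes dark. Diabetic replicate 1 is the tallest bar for the 4 adjoining genes Stfa2l1 to 2010005H15Rik (4.20, 5.59, 2.45 and 2.36), whereas diabetic replicate 3 is tallest for Stfa2 (3.36).

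Of 16 cystatin genes looked for, Csta3 is the RefSeq name of Gm5416 and so belongs to the 7. Another 6 were in the table and were compared with limma. The adjusted threshold was passed by 0 of these 6 (0.0658% of genes tested in both directions). At an unadjusted p under 0.05, 2 were higher and 1 was lower (11.5% of genes tested in both directions), and 1, 2010005H15Rik, was higher at the study's thresholds (2.49% of genes tested in both directions). 2010005H15Rik had 13.3, 2.87 and 4.01 FPKM in diabetic and 1.34, 2.20 and 1.90 FPKM in control libraries (log2 fold change 1.22, SE 0.44, adjusted p = 0.353). Csta1, which lies at the end of the cluster, had 121, 130 and 129 FPKM in diabetic and 94.5, 96.4 and 107 FPKM in control libraries (0.35, SE 0.09, adjusted p = 0.243). BC117090, the closest relative of BC100530 outside the 7, overlapped between the groups, with 15, 23.2 and 26.7 FPKM in diabetic and 20.7, 16.1 and 15.4 FPKM in control libraries (adjusted p = 0.654).

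Cstb encodes stefin B, the ubiquitous relative of stefin A, from another chromosome. It averaged 959 ± 20.1 FPKM in diabetic and 956 ± 31.8 FPKM in control cornea, with a log2 fold change of 0.00 (95% interval -0.14 to 0.14, adjusted p = 0.987). Of the secreted cystatins, Cst3 (cystatin C) averaged 106 ± 2.80 FPKM in diabetic and 122 ± 2.97 FPKM in control cornea (-0.20, adjusted p = 0.396), and Cst6 (cystatin M/E) 3.31 ± 0.989 and 4.41 ± 0.577 FPKM (-0.35, adjusted p = 0.492). The median log2 fold change of the 6 was 0.14.

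The proteases that cystatins bind were compared in the same way. Of 10 cysteine cathepsins and legumain genes in the table, 0 passed the adjusted threshold (0.0658% of all genes tested) and 0 the study's thresholds (2.49%), and 1 was lower at an unadjusted p under 0.05 (11.5% in both directions). That gene was Ctsf, with 3.67 ± 0.289 FPKM in diabetic and 5.00 ± 0.830 FPKM in control cornea (log2 fold change -0.35, adjusted p = 0.363). Ctsl, the most abundant, averaged 228 ± 38.6 FPKM in diabetic and 199 ± 31.4 FPKM in control cornea (0.19, adjusted p = 0.674). The log2 fold changes of the others were 0.20 for Ctss, 0.08 for Ctsz, 0.03 for Ctsh, 0.00 for Ctsc, -0.08 for Ctsb, -0.11 for Lgmn, -0.12 for Ctsk and -0.14 for Ctso, with adjusted p-values between 0.684 and 0.995. The median of the 10 was -0.04, the same as that of all genes tested.

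**Figure D4:**
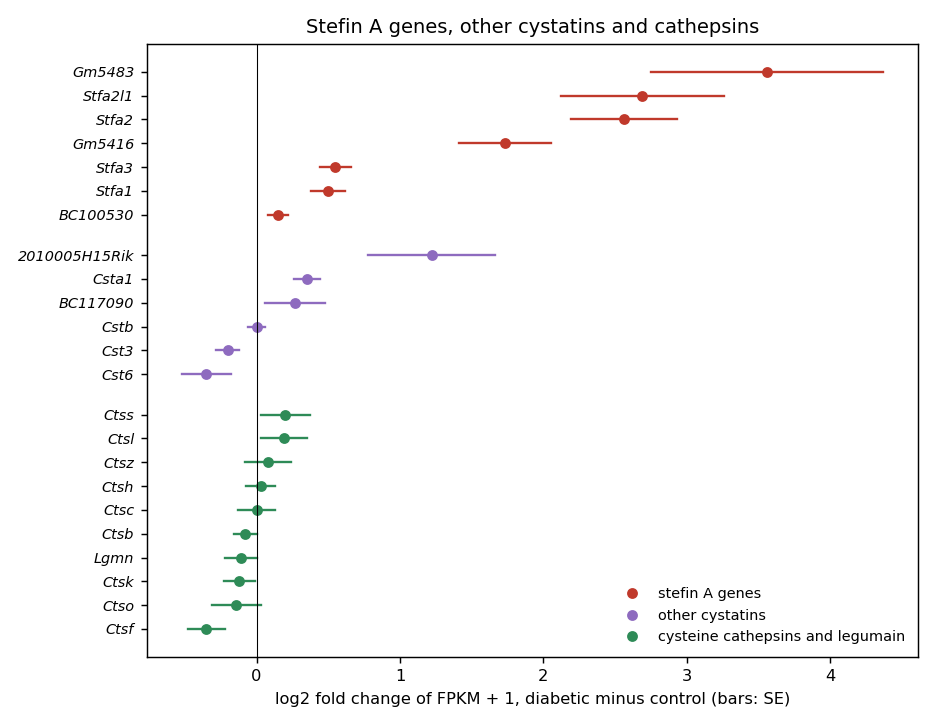
Log2 fold changes of FPKM + 1, diabetic minus control, with bars of 1 SE, for the 7 stefin A genes, 6 other cystatins and 10 cysteine cathepsins and legumain genes. The stefin A genes run from 0.15 for BC100530 to 3.56 for Gm5483, and the proteases lie between -0.35 for Ctsf and 0.20 for Ctss.

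Since several mouse stefin A copies are known from neutrophils, a list of mature neutrophil genes was read beside them. Of 20 genes in the list 19 were in the table and 18 were tested, and Ly6g was not analysed here. None, 0 of 18, passed the adjusted threshold, while 5 were higher and 0 lower at the study's thresholds (Slfn4, Fpr1, Fpr2, Clec4d and S100a9), where 1.23% of all genes tested were higher. At an unadjusted p under 0.05, 6 were higher and 1 lower, where 4.61% of all genes tested were higher. The lower gene was Padi4, with 13.4, 15.3 and 9.52 FPKM in diabetic and 17.9, 19.6 and 17.9 FPKM in control libraries (log2 fold change -0.52). The median log2 fold change of the list was 0.43. Diabetic replicate 1 was the highest library for 16 of the 18 genes, and the medians of the differences from the control mean were 1.10, 0.04 and 0.12 in diabetic replicates 1, 2 and 3. The summed FPKM of the list was 1279, 853 and 870 in the diabetic and 618, 544 and 855 in the control libraries. Most of each sum came from S100a9, S100a8 and Pglyrp1, with 728, 227 and 192 FPKM in diabetic replicate 1, where Ptprc had 0.529 FPKM. Whether these transcripts came from neutrophils was not tested.

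The 4 neutrophil genes with the smallest p were Slfn4, Fpr2, Fpr1 and Pglyrp1. Slfn4, a Schlafen gene of myeloid cells, had 39.7, 19.8 and 19.9 FPKM in diabetic and 5.30, 8.80 and 5.19 FPKM in control libraries (log2 fold change 1.84, adjusted p = 0.093). The formyl peptide receptor Fpr1 had 10.4, 2.79 and 1.43 FPKM in diabetic and 0.376, 0.345 and 0.375 FPKM in control libraries (1.79, adjusted p = 0.269), and its relative Fpr2 had 6.75, 2.69 and 1.59 FPKM against 0.675, 0.387 and 0.913 FPKM (1.35, adjusted p = 0.264). Pglyrp1, a peptidoglycan-binding granule protein, averaged 176 ± 13.3 FPKM in diabetic and 139 ± 13.4 FPKM in control cornea (0.35, adjusted p = 0.297). The chemokine receptor Cxcr2, a defining neutrophil marker, was well above the controls in diabetic replicate 1 alone, with 2.79, 0.614 and 0.504 FPKM in diabetic and 0.565, 0.530 and 1.11 FPKM in control libraries.

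**Figure D5:**
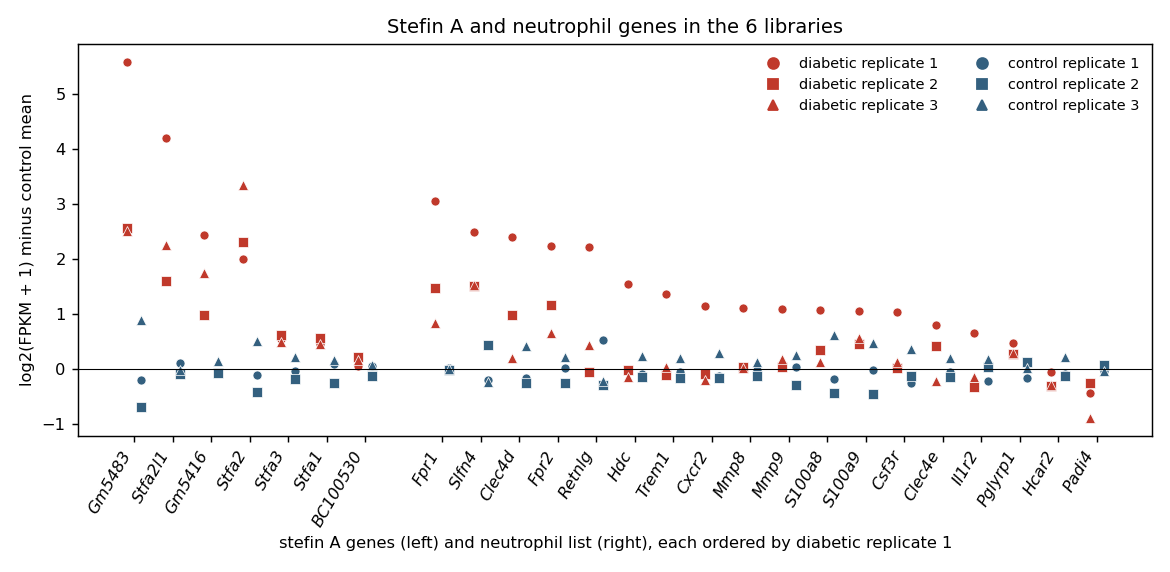
log2(FPKM + 1) of each library minus the control mean, for the 7 stefin A genes at the left and the 18 neutrophil genes tested at the right, each set in falling order of diabetic replicate 1. The circle of diabetic replicate 1 is the highest symbol for 16 of the 18 neutrophil genes and for Gm5483, Stfa2l1 and Gm5416, but not for Stfa2, Stfa3, Stfa1 or BC100530.

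Granule genes of neutrophil precursors were at or near 0. Of 7 in the table, Camp, Elane and Ms4a3 were listed at 0 in all libraries, Mpo was listed above 0 in diabetic replicate 1 alone (0.0205 FPKM) and Ngp in diabetic replicate 3 alone (0.079 FPKM). Prtn3 reached at most 0.163 FPKM. Ltf, which epithelia also express, averaged 14.2 ± 5.30 FPKM in diabetic and 18.5 ± 3.29 FPKM in control cornea (adjusted p = 0.561). In diabetic replicates 2 and 3, Gm5483 was 10.8 and 10.3 times, Stfa2 4.97 and 10.4 times, Stfa2l1 4.62 and 7.71 times and Gm5416 2.19 and 3.83 times the control mean. In both of these pools, the neutrophil genes Slfn4, Fpr1, Fpr2 and Pglyrp1 also lay above all control libraries, while Padi4 and Hcar2 lay below all of them. The other neutrophil genes tested did neither in both pools. The share of all genes tested that lay above or below all control libraries in these pools was not computed. Nothing is therefore read from the genes named. The medians of the list's differences from the control mean were 0.04 and 0.12 in these pools. These medians are on the log2(FPKM + 1) scale, where differences of genes under 1 FPKM are small, as many of the list were. They cannot be set against the FPKM ratios given for the stefin A genes. The part of neutrophil RNA in the stefin A values was not tested.

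Marker lists of other tissues also differed between the pools. Over the diabetic replicates 1, 2 and 3, the median difference from the control mean was 1.11, 3.06 and 0.28 for 11 lens genes, -1.41, -2.20 and -1.15 for 5 erythrocyte genes and -0.30, -0.21 and -0.81 for 6 stromal genes. The summed FPKM of the lens list was 97.7, 320.0 and 61.0 in diabetic and 40.8 to 46.8 in control libraries, and that of the erythrocyte list 17.9, 9.90 and 22.2 in diabetic and 40.9 to 107 in control libraries. For 10 macrophage genes tested the median difference from the control mean was 0.18, -0.16 and -0.08. The summed FPKM of all 12 genes of that list was 77.4, 46.0 and 41.3 in diabetic and 46.1 to 52.9 in control libraries. Of these sums, Cd14 alone held 28.4, 7.53 and 5.65 FPKM in diabetic and 4.62, 3.34 and 5.81 FPKM in control libraries. For 2 T and NK cell genes the median difference was 1.14, 0.18 and 1.19. The part of these cell types in the stefin A values was not tested.

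The wider neighbourhood was read to see whether the change reached past the stefin genes. Within 1 Mb of the outermost members 27 other genes were in the table and 22 were tested, and 0 passed the adjusted threshold, with 6 higher and 1 lower at an unadjusted p under 0.05 (11.5% of all genes tested in both directions, 4.61% higher). At the study's thresholds 2 were higher (2010005H15Rik and Slc15a2) and 1 lower (Fam162a), against 2.49% of all genes tested in both directions. The peptide transporter Slc15a2 had 2.0, 3.95 and 4.84 FPKM in diabetic and 1.95, 1.84 and 1.75 FPKM in control libraries (log2 fold change 0.64, adjusted p = 0.351). Fam162a, a gene of the hypoxia response, had 259, 201 and 147 FPKM in diabetic and 332, 341 and 342 FPKM in control libraries (-0.78, adjusted p = 0.203). Of the 19 tested neighbours that are not cystatins, 4 were higher and 1, Fam162a, lower at an unadjusted p under 0.05, where 4.61% of all genes tested were higher. The 4 were Slc15a2, Parp14 (log2 fold change 0.48), Parp9 (0.40) and Dtx3l (0.32). The median log2 fold change of the 19 was 0.04. The nearest genes are Csta1 on one side and, on the other, the calcium-sensing receptor Casr, which was listed at 0 except for 0.00842 FPKM in control replicate 2.

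The 7 genes did not all vary alike over the 6 libraries. Between members, Pearson r ran from 0.39 (Stfa2l1 with BC100530) to 0.98 (Stfa2l1 with Gm5416). To see which other genes had a pattern like their mean, the mean of the 7 centred log2 values was formed for each library. It was 1.35, 0.43 and 0.73 in diabetic replicates 1, 2 and 3 and -0.86, -1.10 and -0.55 in control replicates 1, 2 and 3. Among 10975 genes, the 10 with the highest Pearson r over the 6 libraries were Wdr74 (0.998), Phf20 (0.987), Wdr33 (0.986), Rexo4 (0.984), Eya2 (0.984), Slc15a4 (0.983), Milr1 (0.981), Arhgap45 (0.980), Gprc5b (0.976) and Hmga2 (0.974), with Spearman's rho between 0.943 and 1.00. These values describe 6 libraries in 2 groups and carry no p. Wdr74, which had the closest pattern, had 30.4, 26.1 and 28.1 FPKM in diabetic and 21.8, 21.2 and 23.1 FPKM in control libraries, a far narrower range than that of the low stefin A genes. Hmga2, an architectural chromatin protein, had 17.9, 12.5 and 13.0 FPKM in diabetic and 5.00, 5.95 and 7.97 FPKM in control libraries.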

How the data were processed

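The members and gene lists were chosen with earlier results of these data known. Per the labels and the study's methods, libraries were made with a stranded KAPA kit and sequenced on a NovaSeq instrument, and the submitters' processing notes name FastQC, cutadapt, HISAT2, StringTie and GRCm38 without versions. The authors deposited FPKM per protein-coding gene, and no read counts were used. Of 21 repeated symbols, the gene with the highest mean was kept under the symbol. Genes with a mean of at least 0.5 FPKM in 1 or both groups were kept (12149, with 2819 removed). After a log2 transform with a pseudocount of 1, a linear model on group was fitted with limma 3.58.1 (R 4.3.3), two-sided and with an intensity trend (4 residual and 3.65 prior degrees of freedom), and p-values were adjusted by Benjamini-Hochberg over all genes kept. FPKM fold changes on this scale understate the change of low genes. The fit was tested on simulated data with noise independent between genes. Those data hold no pool that differs across many genes, so that case was not tested.

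Named were all members, every measured gene of the lists of other cystatins and of cathepsins, neighbours past the study's thresholds and the nearest on each side, the 4 neutrophil genes with the smallest p of each list, the 10 genes most alike, and the defining markers. Cxcr2, Padi4, Hcar2, S100a8, the neighbours Parp14, Parp9 and Dtx3l, and the precursor granule genes other than Ltf were named after their values were seen. So were the remaining neutrophil genes past the study's thresholds. Coding sequences came from GENCODE M21 and promoters from RefSeq GRCm38.p6, aligned with Biopython 1.88. Protein sequences were not used here. Alternatives were a pseudocount of 0.1, other filters, TPM, median-of-ratios scaling, limma without trend, the replicate number as a block, and leaving out each library.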

Additional observations from a re-analysis of the deposited data

How the results depend on the processing

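The 7 stefin A genes had a log2 fold change above 0 in every alternative that was run. Across these, Gm5483 ranged between 2.54 and 5.23, Stfa2l1 between 1.93 and 3.29, Stfa2 between 2.15 and 2.83, Gm5416 between 1.37 and 2.10, Stfa3 between 0.45 and 0.66, Stfa1 between 0.37 and 0.58 and BC100530 between 0.09 and 0.21. Requiring a mean of at least 1 FPKM in both groups removed Gm5483 and left a median of 1.14 over 6 genes. With TPM, with median-of-ratios scaling and without control replicate 3, Stfa3 also passed the study's thresholds. In alternatives chosen after seeing the data, the log2 ratio of the summed FPKM, 0.25 for all 7 genes, was 0.94 without BC100530 and 2.89 for Gm5483, Stfa2l1, Gm5416 and Stfa2 alone.

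Over all genes, the 8 calls at the adjusted threshold became 1 without a filter, 3 without the intensity trend and between 1 and 66 when a library was left out (66 without diabetic replicate 1, 1 without diabetic replicate 3, 3 without control replicate 1 and 2 without control replicate 3). The 302 genes past the study's thresholds, by limma rather than the study's own test, became 584 with a pseudocount of 0.1 and 497 with TPM, where 264 were higher. When a library was left out they were between 258 and 469 (469 without diabetic replicate 1, of which 180 were higher). In the lists of cystatins, cathepsins, neighbours and neutrophil genes, 8 of 54 genes tested passed the study's thresholds in either direction. Of all genes tested, 2.49% did. Fam162a was lower and the others were higher. Without a filter they were 4 of 66, where 246 of 14968 genes passed. When a library was left out they were between 5 and 8 (5 without control replicate 1 or 2). The median of the stefin A genes ranged between 1.37 and 2.10 and the log2 ratio of their sums between 0.18 and 0.29 when a library was left out.

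The groups share replicate numbers, and the study calls its samples paired without saying what a number stands for. Libraries of the same number did not deviate together (r = -0.198, 0.056 and -0.086 over 12149 genes). The main comparison has no block. With the replicate block, 3 genes were called, among them 1 stefin A gene, Stfa2. Without diabetic replicate 2, Gm5416 was called. Depth is unknown, so no counting error could be given for the low values.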

Other observations

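Likeness over the 6 libraries was also read for Gm5483, the stefin A gene with the largest log2 fold change, and for Stfa2, both singled out after their values had been seen. Pearson's r is a description without a p. The 10 genes closest to Gm5483 outside the 7 were Zbed4 (0.994), Zhx1 (0.990), Fpr2 (0.981), Ftsj3 (0.980), Wdr33 (0.979), Ncf1 (0.977), Isca2 (0.977), Slpi (0.977), Slfn1 (0.971) and Mgst1 (0.970). The 10 closest to Stfa2 were Rragd (0.996), Fut4 (0.992), Ctgf (0.991), Ppp3cc (0.986), Slc25a28 (0.984), Kcnk12 (0.983), Tcte3 (0.982), Nmi (0.980), Ifit3b (0.980) and Slfn2 (0.980).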
